A study of Mus musculus with 28 samples.

Results

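The second of a pair of small interfering RNAs against Keap1, siKeap1-2, was set against a control siRNA, siControl, in macrophages grown from mouse bone marrow. The samples were chosen by their labels: 4 arrays of siKeap1-2 and 4 of siControl, 8 of the 28 arrays of the series. All of these cells came from C57BL/6 J mice aged 12 weeks with intact Nrf2 (Nrf2 +/+), and the siRNAs were not tested in cells without Nrf2. The same experiment held 4 arrays of the first siRNA, siKeap1-1, with the same control arrays. A separate experiment of 16 arrays gave the small molecule RA839 or its solvent DMSO, at 0.2%, for 4 h to cells with Nrf2 (WT, Nrf2 +/+) or without it (KO, Nrf2-/-). Those cells also came from mice aged 12 weeks. The sources used here give neither the siRNA sequences and dose, nor the time after transfection, nor the dose of RA839. A small interfering RNA guides the cutting of the messenger RNA that it matches, and may also lower other RNAs, and on these 4 arrays effects of the loss of Keap1 and other effects of siKeap1-2 cannot be told apart.

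Keap1 is the adaptor of a ubiquitin ligase that marks Nrf2, a transcription factor encoded by Nfe2l2, for destruction by the proteasome. When Keap1 is lacking or blocked, Nrf2 builds up, pairs with small Maf proteins and binds antioxidant response elements in front of genes for glutathione synthesis, detoxification and NADPH supply. In macrophages, Nrf2 is also known for restraining inflammatory genes.

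The RNA level of each gene was read as 1 log2 signal per array, so a difference of 1 is a doubling. Of the 18193 genes tested, 2038 differed between siKeap1-2 and siControl at a limma adjusted p under 0.05 (Benjamini-Hochberg over all genes), and these are called below. Higher calls numbered 1149 (6.32% of all genes tested) and lower calls 889 (4.89%), a split of 56.4% higher, which became 41.7% when each array was centred on its median. The shares of list members below are to be read against these shares of all genes. At least 2-fold changes were fewer, with 137 genes higher and 41 lower, and the median absolute log2 change of the called genes was 0.41 against a median standard error of 0.09. With the same-numbered arrays paired in the fit, 3719 genes were called, 2067 higher (11.4%) and 1652 lower (9.08%), and 2030 of the 2038 were among them. Leaving out siKeap1-2 replicate 2 brought the higher calls to 755.

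The arrays numbered 4 stood apart from the other 9 siRNA arrays on the second principal component, at −20.05 with siKeap1-2, −25.30 with siKeap1-1 and −22.20 with siControl, against 0.86 to 14.48. The neutrophil gene S100a9 read 7.42 on siKeap1-2 array 4 and 7.36 on siControl array 4, against 10.41 to 11.49 and 10.49 to 11.41 on the other arrays of each group. Without the arrays numbered 4 in all 3 groups, 1367 genes were called, 744 higher and 623 lower, and 1210 of them were among the 2038. Array medians lay at 5.91 to 5.95 with siKeap1-2 and 5.93 to 5.96 with siControl. Of the control probe sets that compare the 3′ and 5′ ends of an RNA, that of Gapdh differed by 0.74 to 0.78 with siKeap1-2 and by 0.77 to 0.80 with siControl. That of Actb differed by 1.47 to 1.62 with siKeap1-2 and by 1.34 to 1.48 with siControl, and that of Tfrc by 4.04 to 4.42 with siKeap1-2 and by 3.51 to 4.17 with siControl. Both were higher with siKeap1-2 in all 4 same-numbered pairs, although the groups overlapped, and their part in the results below was not tested. That of Pcx, the gene of pyruvate carboxylase, differed by 2.46 to 2.68 with siKeap1-2 and by 0.71 to 1.24 with siControl, and the Pcx 3′ probe set itself read 8.56 to 8.79 and 6.92 to 7.22. The Pcx 5′ probe set read 6.08 to 6.26 with siKeap1-2 and 5.90 to 6.39 with siControl. The middle Pcx probe set MA read 6.00 to 6.37 and 5.98 to 6.13, and the middle set MB 5.10 to 5.54 and 4.63 to 5.09. The separate gene probe set of Pcx, chosen here after its values were seen, rose by 1.69 ± 0.10 (adjusted p = 7.61e-07).

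The targeted gene checked the labels. Keap1 read 9.25, 9.15, 9.15 and 9.47 on the siKeap1-2 arrays, against 10.94, 11.12, 11.12 and 11.16 on the siControl arrays. The groups lay far apart, and Keap1 fell by 1.83 ± 0.08 (log2, SE, n = 4 arrays each), which is 3.56-fold, with an adjusted p of 1.42e-07. The mean of its 2 probe sets fell by 1.08. Nfe2l2, which encodes Nrf2 itself, read 12.86, 12.77, 12.81 and 12.85 with siKeap1-2 and 13.05, 13.15, 13.14 and 13.23 with siControl. Its RNA was lower on every siKeap1-2 array and fell by 0.32 ± 0.05 (adjusted p = 0.00238). Among 18 measured genes of the Keap1 and Nrf2 machinery, 3 rose (16.7%) and 2 fell (11.1%), the 2 being Keap1 and Nfe2l2. With paired arrays 4 rose and 3 fell. The small Maf partner gene Mafg rose by 0.73 ± 0.07 (adjusted p = 3.39e-05) and Maff by 0.55 ± 0.12 (adjusted p = 0.0106). The log2 change of the ligase subunit gene Cul3 was 0.16 (adjusted p = 0.0751), and that of the competing repressor gene Bach1 was 0.10 (adjusted p = 0.313).

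The response of known Nrf2 targets was broad and in 1 direction. Of 29 measured core targets, 21 rose (72.4%, against 6.32% of all genes) and 0 fell (23 and 0 at an unadjusted p under 0.05 in limma), and their median log2 change was 0.71 against 0.03 over all genes. Between 19 and 23 rose under every setting tried, and 21 without the arrays numbered 4. The members and lists were written with earlier results of these data known, and the redox lists share members.

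Antioxidant response elements are short motifs, and the core searched here was TGACNNNGC on either strand. RefSeq promoter windows of GRCm38.p6, from 250 bases before to 50 bases after a gene's start, were available for 14367 of the genes tested. The core stood in 13.8% of these 18006 windows, in 15.8% of the 1174 windows of genes called higher, in 12.6% of the 938 windows of genes called lower and in 29% of the 31 windows of the core Nrf2 targets. A match is a description of letters and not a binding site. The 3 core targets below had the largest rises among those with 1 window holding the core before or across the start. They are shown 5′ to 3′ in the direction of the gene, to let the element be seen in its context, from 200 bases before the start to the start or the end of the motif, with the motif in capitals. Gsta3 lies on the plus strand (chr1:21240385-21240584), Me1 on the minus strand (chr9:86695912-86696114) and Gclm on the plus strand (chr3:122245357-122245556).
Gsta3: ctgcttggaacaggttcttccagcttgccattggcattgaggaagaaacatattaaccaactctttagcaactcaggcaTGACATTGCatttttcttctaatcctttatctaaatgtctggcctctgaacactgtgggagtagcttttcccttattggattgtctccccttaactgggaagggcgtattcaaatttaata
Me1: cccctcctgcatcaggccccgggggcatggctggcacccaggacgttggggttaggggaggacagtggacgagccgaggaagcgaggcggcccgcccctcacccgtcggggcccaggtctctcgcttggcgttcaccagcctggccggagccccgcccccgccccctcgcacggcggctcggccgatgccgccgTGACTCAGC
Gclm: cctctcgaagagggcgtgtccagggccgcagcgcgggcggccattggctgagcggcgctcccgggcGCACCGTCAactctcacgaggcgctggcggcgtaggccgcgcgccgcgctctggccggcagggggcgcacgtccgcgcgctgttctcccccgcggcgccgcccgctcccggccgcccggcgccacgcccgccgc
In Gsta3 the motif began 121 bases and in Gclm 134 bases before the start, and in Me1 it began 6 bases before the start and ran across it. Gclm holds it on the opposite strand.

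**Figure D1:**
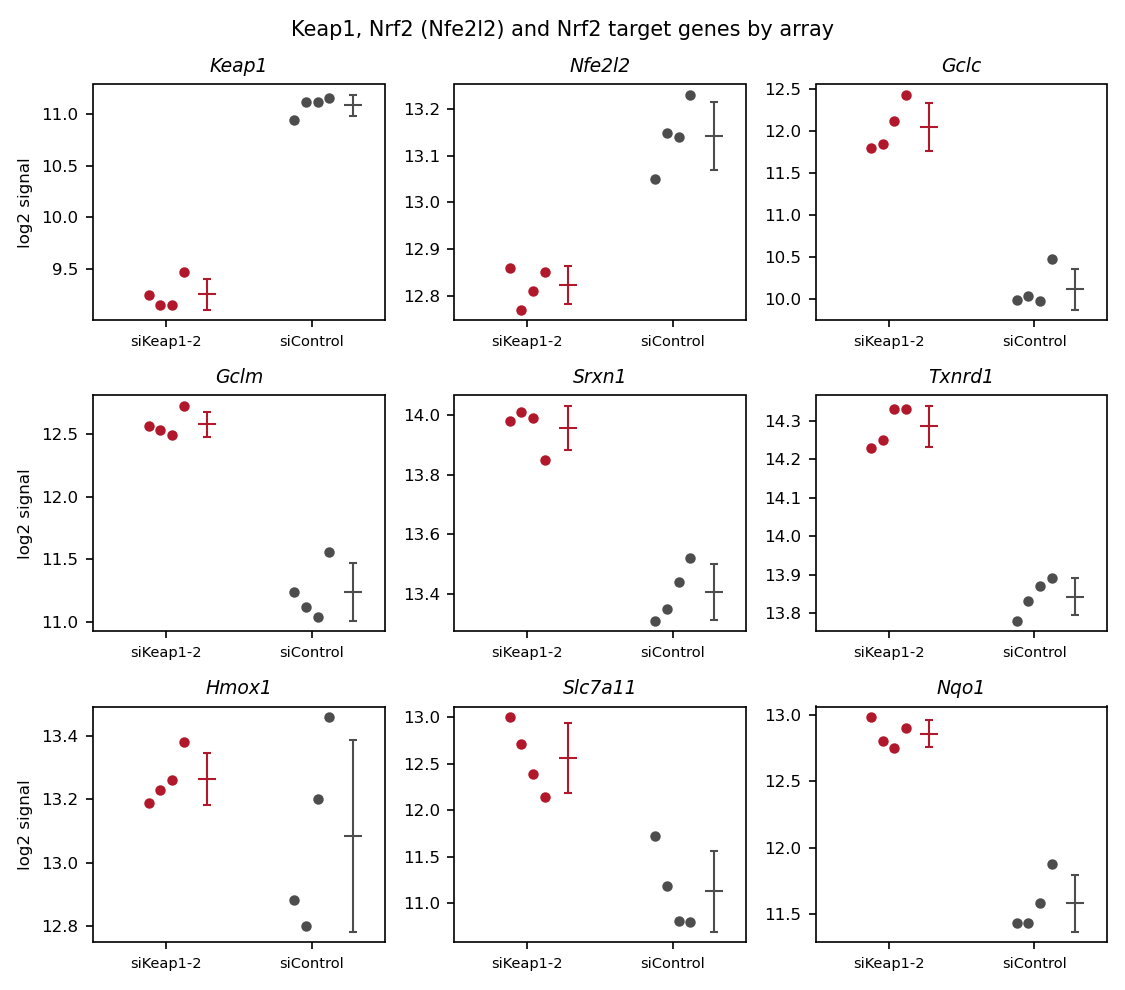
Log2 signal (vertical axis, a scale of its own in each panel) of Keap1, Nfe2l2 and 7 target genes on the 4 siKeap1-2 arrays (red) and the 4 siControl arrays (grey), with the group mean and SD beside the points. Keap1 and Nfe2l2 were lower on every siKeap1-2 array, 6 targets were higher on every one, and the Hmox1 groups overlapped. Over all genes, 20.6% had no overlap between the groups in either direction.

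Glutathione synthesis was the redox pathway with the highest share of rises after the core list. Of its 12 measured genes, 8 rose (66.7%) and 0 fell. With paired arrays 11 rose and 1 fell. Gclc, the catalytic subunit of the rate-limiting enzyme, read 11.80, 11.85, 12.12 and 12.43 with siKeap1-2, against 9.98, 10.03, 9.97 and 10.48 with siControl. All 4 arrays lay above all 4 control arrays, and Gclc rose by 1.94 ± 0.18 (3.82-fold, adjusted p = 2.87e-05). Gclm, its modifier subunit, read 12.56, 12.53, 12.49 and 12.72 with siKeap1-2 and 11.24, 11.12, 11.04 and 11.56 with siControl, a rise of 1.33 ± 0.12 (adjusted p = 2.14e-05). Gss, which adds the last amino acid of glutathione, rose by 2.18 ± 0.14 (4.52-fold, adjusted p = 1.5e-06). Slc7a11, the cystine importer, read 13.0, 12.71, 12.39 and 12.14 with siKeap1-2, against 11.72, 11.19, 10.81 and 10.80 with siControl. It varied more between arrays than the enzymes did and rose by 1.43 ± 0.24 (adjusted p = 0.00268), or by 0.82 as the mean of its probe sets. Ggt5, a member of the gamma-glutamyl transferase family, rose by 2.19 ± 0.28 (adjusted p = 0.000374), and Gsr, which recycles oxidised glutathione, by 0.34 ± 0.05 (adjusted p = 0.000625), or by 0.63 as the mean of its probe sets.

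Glutathione transferases couple glutathione to reactive molecules, and 9 of 21 measured members rose (42.9%) and 0 fell. With paired arrays 10 rose and 1 fell. The alpha class members changed most. Gsta4, known for clearing products of lipid peroxidation, read 9.61, 9.67, 9.45 and 9.24 with siKeap1-2 and 6.05, 6.11, 5.98 and 5.74 with siControl. It rose 11.5-fold, by 3.52 ± 0.12 (adjusted p = 1.22e-08). Gsta3 read 12.25, 12.37, 12.23 and 12.25 with siKeap1-2 and 10.23, 10.05, 10.04 and 9.74 with siControl, and rose by 2.26 ± 0.11 (adjusted p = 2.25e-07). Gsta2 rose by 2.94 ± 0.18 (adjusted p = 1.5e-06) and the microsomal Mgst2 by 0.84 ± 0.09 (adjusted p = 0.000103). Members of the omega class and Gstp1 did not pass the test, with a log2 change of 0.11 for Gstp1 (adjusted p = 0.61). Probe sets of near-identical family members can cross-react, so values of single transferases are uncertain in that respect.

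Enzymes that handle quinones, carbonyls and epoxides rose in 12 of 23 cases (52.2%), and 0 fell. Ephx2, the soluble epoxide hydrolase, read 11.42, 11.66, 11.86 and 11.49 with siKeap1-2, against 8.51, 8.14, 8.54 and 8.09 with siControl. That is a rise of 3.29 ± 0.14 (9.77-fold, adjusted p = 1.1e-07), and the microsomal hydrolase gene Ephx1 rose by 1.17 ± 0.07 (adjusted p = 8.35e-07). Nqo1, the quinone reductase often used as a readout of Nrf2, read 12.98, 12.80, 12.75 and 12.90 with siKeap1-2 and 11.43, 11.43, 11.58 and 11.88 with siControl. It rose by 1.28 ± 0.13 (2.42-fold, adjusted p = 5.96e-05). Adh7, an alcohol dehydrogenase, rose by 2.37 ± 0.14 (adjusted p = 1.25e-06) and the carbonyl reductase gene Cbr3 by 1.18 ± 0.13 (adjusted p = 9.62e-05).

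The thioredoxin system moved less. Of its 12 measured genes, 2 rose (16.7%) and 1 fell (8.33%). With paired arrays 4 rose, and without probe sets that can match several transcripts 1 rose. Srxn1, sulfiredoxin, read 13.98, 14.01, 13.99 and 13.85 with siKeap1-2 and 13.31, 13.35, 13.44 and 13.52 with siControl, a rise of 0.55 ± 0.06 (adjusted p = 0.000164). Its other, dimmer probe sets rose by 0.52, 0.91 and 1.02. Txnrd1, thioredoxin reductase, rose by 0.44 ± 0.05 (adjusted p = 0.000172), and by 0.96 as the mean of its probe sets. Both were already bright in siControl. Of the genes for NADPH supply, 4 of 12 rose (33.3%) and 2 fell (16.7%). The falls were Idh2, by 0.39, and Nnt, by 0.33, and both depended on the probe set chosen. As the mean of their probe sets, Idh2 changed by 0.0177 and Nnt by −0.22, and neither was called (adjusted p = 0.872 and 0.0723). The other Idh2 probe set rose by 0.43. Me1, malic enzyme, read 9.02, 8.95, 9.04 and 9.40 with siKeap1-2, against 7.29, 6.58, 6.81 and 7.54 with siControl. Me1 rose by 2.05 ± 0.19 (adjusted p = 3.57e-05) and the pentose phosphate enzyme gene Taldo1 by 0.71 ± 0.05 (adjusted p = 3.86e-06). Among the export pumps of the ABC family, 2 of 8 rose (25%), Abcc4 by 1.50 ± 0.20 (adjusted p = 0.000476) and Abcc1 by 0.97 ± 0.11 (adjusted p = 0.000111). With paired arrays 4 of these pumps rose and 1 fell.

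Haem and iron genes rose in 8 of 18 cases (44.4%), 1 fell (5.56%), and the best-known member did not pass. Hmox1, the inducible haem oxygenase, read 13.19, 13.23, 13.26 and 13.38 with siKeap1-2, against 12.88, 12.80, 13.20 and 13.46 with siControl. The groups overlapped, and the log2 change was 0.18 ± 0.13 (adjusted p = 0.442). Blvrb, a biliverdin reductase, rose by 0.75 ± 0.08 (adjusted p = 0.000106) and the porphyrin transporter gene Abcb6 by 1.28 ± 0.12 (adjusted p = 3.68e-05). Centred arrays, or the loss of any of siControl replicates 1 and 2 and siKeap1-2 replicates 2 and 3, left 5 rises in this list.

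The largest rise of all fell on a gene outside these lists. Heph encodes hephaestin, a copper-dependent ferroxidase known for iron export from the gut, and read 10.51, 10.62, 10.89 and 10.45 with siKeap1-2, against 4.86, 4.96, 4.87 and 4.75 with siControl. Its signal was 54.1-fold higher, a rise of 5.76 ± 0.15 (adjusted p = 2.24e-09). Il1f9, which encodes the cytokine interleukin 36 gamma, read 11.58, 11.67, 11.71 and 11.77 with siKeap1-2 and 8.12, 7.91, 7.87 and 8.18 with siControl, and rose by 3.66 ± 0.12 (adjusted p = 1.22e-08). Both were separated from the controls by many times the spread between arrays, although a lack of overlap was part of their choice. Adm, the gene of the vasodilator peptide adrenomedullin, rose by 3.47 ± 0.15 (adjusted p = 1.1e-07), but by 1.0 without probe sets that can match several transcripts and by 2.23 as the mean of its probe sets. Ednrb, an endothelin receptor, read 10.23, 10.68, 11.25 and 12.22 with siKeap1-2 and 7.73, 7.57, 7.55 and 8.30 with siControl. It rose by 3.31 ± 0.44 (adjusted p = 0.000469), or by 1.51 as the mean of its probe sets, with the widest spread among the siKeap1-2 arrays of the genes in this paragraph. Slc6a9, a glycine transporter and thus a carrier of a glutathione building block, read 11.97, 12.01, 12.04 and 12.26 with siKeap1-2 and 9.46, 9.14, 9.33 and 9.69 with siControl, and rose by 2.66 ± 0.13 (adjusted p = 2.25e-07), or by 1.69 as the mean of its probe sets.

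The other large rises were of mixed function. Esm1, a secreted proteoglycan gene, rose by 3.19 ± 0.31 (adjusted p = 5e-05) from a dim signal, with 5.03 on siKeap1-2 array 1 and 6.29 to 6.40 on the other siKeap1-2 arrays, against 2.29 to 3.26 with siControl. Treml4, a receptor of the TREM family, rose by 3.07 ± 0.18 (adjusted p = 9.23e-07). Lypd6b rose by 2.96 ± 0.23 (adjusted p = 8.56e-06), the small GTPase gene Rasd2 by 2.78 ± 0.28 (adjusted p = 6.08e-05) and Smarcd3, a subunit of the SWI/SNF chromatin remodeller, by 2.39 ± 0.14 (adjusted p = 1.07e-06). These 5 genes were named for large rises with no overlap between the groups, a separation fixed by that choice. Fosl1, a component of the AP-1 transcription factor, rose by 2.11 ± 0.20 (adjusted p = 3.44e-05), or by 1.39 as the mean of its probe sets, while Fos, another component, fell by 0.64 ± 0.14 (adjusted p = 0.0104, and not called without the arrays numbered 4). Of 20 AP-1 and immediate early genes, 2 rose (10%) and 5 fell (25%). The 5 falls became 8 with paired arrays and 3 without siKeap1-2 replicate 2, siControl replicate 3 or siControl replicate 4. Without the arrays numbered 4 there was 1.

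**Figure D2:**
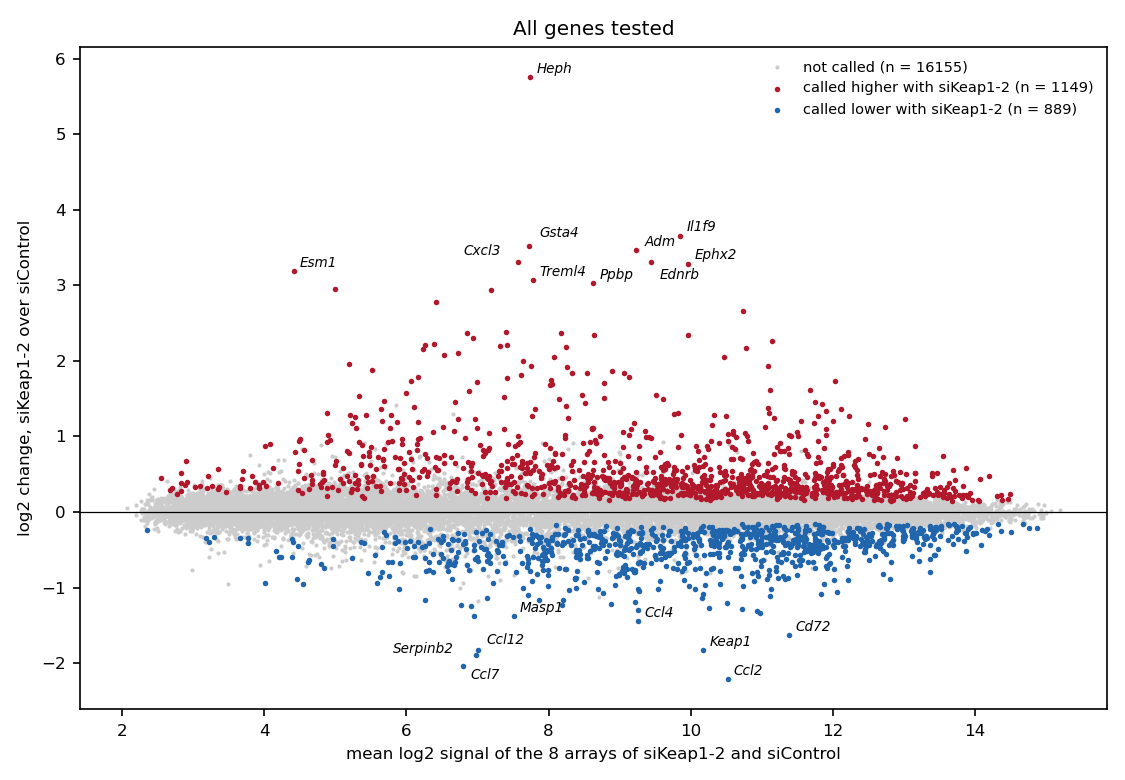
Log2 change of siKeap1-2 over siControl (vertical axis) against the mean log2 signal of the 8 arrays (horizontal axis), 1 point a gene, with the 1149 genes called higher in red, the 889 called lower in blue and the others in grey. The 10 largest rises and 8 largest falls by the naming rule carry their names, and Heph lies apart from all other genes at 5.76.

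Most CC chemokine genes were lower. Of 12 measured CC chemokines, which mainly attract monocytes and T cells, 7 fell (58.3%, against 4.89% of all genes) and 0 rose, with a median log2 change of −0.34. Ccl2, the main monocyte attractant, read 8.90, 9.55, 9.84 and 9.36 with siKeap1-2, against 11.26, 11.84, 11.95 and 11.44 with siControl. It had the largest fall of the named genes, by 2.21 ± 0.22 (4.63-fold, adjusted p = 5.85e-05). The related monocyte attractants Ccl7 and Ccl12 read 5.07, 5.90, 6.06 and 6.05 and 5.04, 6.29, 6.42 and 6.62 with siKeap1-2, against 7.02, 8.14, 8.16 and 7.92 and 7.66, 8.25, 8.16 and 7.60 with siControl. Ccl7 fell by 2.04 ± 0.29 (adjusted p = 0.000861) and Ccl12 fell by 1.82 ± 0.37 (adjusted p = 0.00709). No siKeap1-2 array of either reached a control array, a separation fixed by their choice as large falls with no overlap. Ccl4 read 8.39, 8.68, 8.37 and 8.69 with siKeap1-2 and 9.71, 10.07, 9.96 and 10.17 with siControl. Ccl4 fell by 1.45 ± 0.13 (adjusted p = 2.28e-05), and Ccl3 fell by 0.55 ± 0.10 (adjusted p = 0.00436). Between 5 and 8 members fell under every setting tried.

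Among CXC chemokines, many of which attract neutrophils, the calls were rises. Of 13 measured, 2 rose (15.4%, against 6.32% of all genes) and 0 fell, while with paired arrays 3 rose and 1 fell. The fall was Cxcl16, the gene of a transmembrane chemokine, named here after its values were seen, whose change was −0.26 (adjusted p = 0.111, or 0.0157 with paired arrays), and with arrays centred on their medians 1 fell as well. Cxcl3 read 9.10, 8.73, 9.05 and 10.01 with siKeap1-2 and 6.34, 5.43, 5.35 and 6.53 with siControl, and rose by 3.31 ± 0.34 (9.94-fold, adjusted p = 6.71e-05). Ppbp, the precursor of CXCL7, read 10.77, 10.44, 9.62 and 9.76 with siKeap1-2 and 7.72, 7.13, 6.73 and 6.88 with siControl, and rose by 3.03 ± 0.35 (adjusted p = 0.00015). The change of Cxcl1 was 0.34 (adjusted p = 0.159) and that of Cxcl2 0.28 (adjusted p = 0.431).

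**Figure D3:**
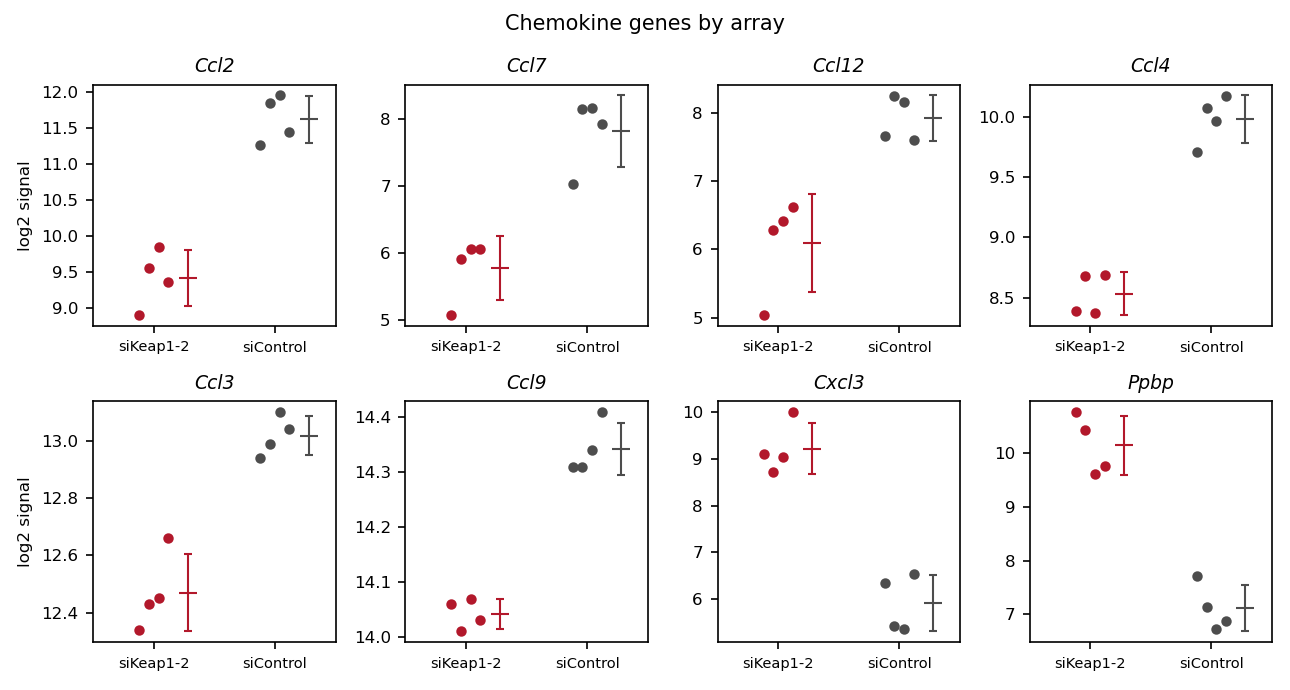
Log2 signal (vertical axis, a scale of its own in each panel) of 6 CC chemokine genes and 2 CXC chemokine genes on the 4 siKeap1-2 arrays (red) and the 4 siControl arrays (grey), with the group mean and SD beside the points. All 6 CC genes lay lower on the siKeap1-2 arrays and both CXC genes higher, with no overlap. For all of them but Ccl3 and Ccl9 this separation was fixed by the naming rule. Over all genes, 20.6% had no overlap between the groups in either direction.

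Other inflammatory genes were mostly lower or did not pass. Of 28 cytokines and mediators, 8 fell (28.6%, 3 of them also counted above as chemokines) and 1 rose (3.57%). Il1b read 6.45, 6.47, 6.97 and 6.37 with siKeap1-2 and 8.04, 7.96, 7.93 and 6.88 with siControl. Here siControl array 4 lay below siKeap1-2 array 3, and Il1b fell by 1.14 ± 0.25 (adjusted p = 0.0132). The interleukin gene Il18 fell by 0.67 ± 0.09 (adjusted p = 0.000331) and Il1rn, the interleukin 1 receptor antagonist, by 0.56 ± 0.11 (adjusted p = 0.00499). Tnf read 7.68, 7.67, 7.74 and 8.0 with siKeap1-2 and 8.08, 8.19, 8.29 and 8.22 with siControl, a fall of 0.42 ± 0.09 (adjusted p = 0.0105). Socs3, a brake on cytokine signalling, was the 1 rise, of 0.63 ± 0.11 (adjusted p = 0.00368), but did not pass without probe sets that can match several transcripts (0.25, adjusted p = 0.164). Il6 read close to the bottom of the signal range in both groups, with means of 2.8.

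Several surface receptors of innate recognition were among the falls. Of 19 Toll-like receptor genes and adaptors, 5 fell (26.3%) and 1 rose (5.26%), and with paired arrays 10 fell and 2 rose. Without siControl replicate 4, siKeap1-2 replicate 1 or siKeap1-2 replicate 2, 3 fell, and without siKeap1-1 replicate 3, 8 fell. Tlr2 read 8.52, 8.57, 8.54 and 8.47 with siKeap1-2 and 9.25, 9.42, 9.40 and 9.43 with siControl, and fell by 0.85 ± 0.08 (adjusted p = 2.85e-05). The co-receptor gene Cd14 fell by 0.91 ± 0.12 (adjusted p = 0.000345). Of 23 scavenger and phagocytic receptors, 3 fell (13%) and 2 rose (8.7%), with a median of 0.01, and with paired arrays 6 fell and 3 rose. Tyro3, a receptor kinase for the uptake of dying cells, rose by 0.53 ± 0.11 (adjusted p = 0.011), but did not pass without the arrays numbered 4 (adjusted p = 0.0849). The high-affinity IgG receptor gene Fcgr1 fell by 1.06 ± 0.11 (adjusted p = 7.93e-05). Msr1, a scavenger receptor, was tight between arrays, at 13.16, 13.11, 13.11 and 13.16 with siKeap1-2 and 13.68, 13.72, 13.69 and 13.71 with siControl, a fall of 0.57 ± 0.04 (adjusted p = 8.56e-06). Cd72, an inhibitory co-receptor best known from B cells, read 10.27, 10.39, 10.64 and 10.99 with siKeap1-2 and 11.80, 12.23, 12.27 and 12.48 with siControl, and fell by 1.62 ± 0.18 (adjusted p = 0.000126). Slamf9, of the SLAM receptor family, fell by 1.31 ± 0.17 (adjusted p = 0.000447), the membrane protein gene Gpr155 by 1.27 ± 0.16 (adjusted p = 0.000256), and the adaptor gene Cass4 by 1.24 ± 0.14 (adjusted p = 0.000176). Dner fell by 1.24 ± 0.11 (adjusted p = 3.39e-05), but by 0.77 without probe sets that can match several transcripts, where it was not called (adjusted p = 0.141).

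Macrophage markers themselves were lower. Of 13 measured, 6 fell (46.2%) and 0 rose, and their mean log2 signal was 12.11 to 12.29 on the siKeap1-2 arrays and 12.55 to 12.72 on the siControl arrays. Leaving out siControl replicate 2 or 4, or siKeap1-2 replicate 1 or 2, brought the falls to 2, and leaving out siControl replicate 3 to 3. With paired arrays 9 fell and 0 rose. The defining markers Csf1r, Cd68, Lyz2 and Adgre1 were not called in limma without pairing, with Csf1r at a mean of 14.3 with siKeap1-2 and 14.4 with siControl (log2 change −0.05, adjusted p = 0.676). In bulk RNA, fewer cells of a type and less RNA per cell cannot be told apart. The T cell genes Cd3d, Cd3e and Cd3g had means of 3.9 to 6.0 with siKeap1-2 and 4.0 to 6.1 with siControl. They do not stand for the whole T cell list, whose brightest member had a mean of 14.29 with siControl. Of the 7 T cell, 6 B cell, 6 NK cell, 8 mast cell, 7 erythroid and 9 dendritic cell markers, 0 were called in limma without pairing. With paired arrays, 1 dendritic cell marker was higher and 2 were lower, 1 B cell marker was higher and 1 lower, and 1 NK cell marker was lower. At an unadjusted p under 0.05 without pairing, 3 dendritic cell, 2 NK cell, 1 T cell, 1 erythroid and 0 B cell markers differed. Of 11 neutrophil markers, 2 rose (18.2%), S100a8 by 0.55 ± 0.16 (adjusted p = 0.0411) and Mmp8 by 0.32 ± 0.06 (adjusted p = 0.00631). The neutrophil list had a mean signal of 6.50 to 7.41 with siKeap1-2 and 6.37 to 7.28 with siControl. Its members differed widely in level, with Elane and Mpo at means of 3.8 and 4.2 with siKeap1-2, but S100a8 and Mmp8 at 12.61 and 13.60. The S100a8 call was lost without any of 7 of the 12 arrays left out singly, the adjusted p then reaching 0.115, and the part of other cell types in the falls and rises above was not tested. Of 10 stromal markers, 1 rose, Pdgfra, by 1.88 ± 0.20 (adjusted p = 0.000106), or by 0.86 as the mean of its probe sets, while the collagen genes Col1a1 and Col1a2 had means of 5.8 and 4.6 with siKeap1-2 and 5.9 and 4.4 with siControl. Of 7 endothelial markers, 2 fell (28.6%), Kdr by 0.55 ± 0.10 (adjusted p = 0.00341) and Vwf by 0.35 ± 0.07 (adjusted p = 0.00821).

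Interferon-stimulated genes were lower in part. Of 37 measured, 17 fell (45.9%) and 1 rose, with a median log2 change of −0.28. Ifit2, an antiviral protein that binds RNA, read 11.84, 11.97, 11.95 and 11.61 with siKeap1-2, against 12.51, 12.84, 12.59 and 12.26 with siControl. It fell by 0.71 ± 0.14 (adjusted p = 0.00601), the signalling factor gene Stat2 fell by 0.57 ± 0.09 (adjusted p = 0.00115), and Oas3, of the oligoadenylate synthases, by 0.33 ± 0.05 (adjusted p = 0.000896). The count was not stable: 7 fell without siControl replicate 2, 8 without siControl replicate 3 or siKeap1-2 replicate 1, 10 without siKeap1-2 replicate 4, and 11 without siControl replicate 4 or siKeap1-2 replicate 2. Without the arrays numbered 4, 5 fell, and with paired arrays 23.

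Proliferation genes were lower as well. Of 34 cell cycle genes, 14 fell (41.2%) and 1 rose, with a median of −0.34, and 21 fell with paired arrays. Ccna2, cyclin A2, read 7.05, 6.99, 6.49 and 6.45 with siKeap1-2, against 8.04, 7.76, 7.44 and 7.51 with siControl, a fall of 0.94 ± 0.18 (adjusted p = 0.0058). Tpx2, which builds the spindle, fell by 0.67 ± 0.07 (adjusted p = 0.000103), and fell by 0.33 as the mean of its probe sets. Rrm2, which makes deoxynucleotides, fell by 0.69 ± 0.13 (adjusted p = 0.00423), and fell by 0.43 as the mean of its probe sets. It did not pass without probe sets that can match several transcripts (−0.44, adjusted p = 0.0846). Nusap1, a spindle protein gene, fell by 1.24 ± 0.29 (adjusted p = 0.0168), or by 0.66 as the mean of its probe sets. Cdkn1a, the cell cycle inhibitor p21, was the 1 rise, of 0.21 ± 0.06 (adjusted p = 0.0426), a call that ended when any 1 of 9 of the 12 arrays was left out (siKeap1-2 arrays 1 to 4, siKeap1-1 arrays 2 and 4, or siControl arrays 1, 2 and 4, with a highest adjusted p of 0.116). Fewer genes fell without siControl replicate 1 or siKeap1-2 replicate 4 (9 each), and 8 fell without probe sets that can match several transcripts.

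Matrix remodelling genes fell in 7 of 17 cases (41.2%), and 1 rose. Mmp9, gelatinase B, read 10.47, 10.50, 10.33 and 9.93 with siKeap1-2 and 11.74, 11.68, 11.82 and 11.35 with siControl, a fall of 1.34 ± 0.24 (adjusted p = 0.00393), but as the mean of its probe sets the fall of 0.87 was not called (adjusted p = 0.0701). Serpinb2, an inhibitor of plasminogen activators, fell by 1.89 ± 0.37 (adjusted p = 0.00603) with wide groups, at 5.57 to 6.79 with siKeap1-2 and 7.32 to 8.53 with siControl. Adam8, a membrane protease, read 13.03, 13.02, 13.09 and 13.07 with siKeap1-2 and 13.63, 13.63, 13.70 and 13.71 with siControl, a fall of 0.62 ± 0.06 (adjusted p = 3.11e-05). Lox, which crosslinks collagen, fell by 1.29 ± 0.24 (adjusted p = 0.0043), or by 0.84 as the mean of its probe sets. Masp1, a protease of the lectin complement pathway, fell by 1.38 ± 0.35 (adjusted p = 0.0234). That fall was not called on leaving out siControl replicate 1, 2 or 3 or siKeap1-2 replicate 2 or 4 (adjusted p up to 0.0601), and without probe sets that can match several transcripts the change was 0.25 (adjusted p = 0.531).

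Proteasome genes shifted upward by small amounts. Of 35 subunits, 16 rose (45.7%) and 0 fell, with a median of 0.16. Psmd11, of the regulatory particle, read 12.78, 12.84, 12.86 and 12.81 with siKeap1-2 and 12.35, 12.30, 12.37 and 12.26 with siControl, a rise of 0.50 ± 0.05 (adjusted p = 6.94e-05). Psmc2, an ATPase of the same particle, rose by 0.34 ± 0.05 (adjusted p = 0.0011). The count fell to 8 with centred arrays, without siKeap1-2 replicate 2 or without the arrays numbered 4, to 9 without siControl replicate 2 or 4 or siKeap1-2 replicate 1, to 10 without siControl replicate 3 or siKeap1-2 replicate 3, and to 6 with the mean of a gene's probe sets or without probe sets that can match several transcripts.

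Smaller groups changed in other lists. Sterol synthesis and related lipid genes fell in 6 of 26 cases (23.1%) and 1 rose (3.85%). There were 12 falls with paired arrays and 3 without the arrays numbered 4. The isoprenoid enzyme gene Idi1 fell by 0.71 ± 0.10 (adjusted p = 0.000976) and Msmo1, of the later sterol steps, fell by 0.74 ± 0.13 (adjusted p = 0.00359), or by 0.47 without probe sets that can match several transcripts. Of 20 chaperones, 4 fell (20%) and 1 rose (5%). The heat shock gene Hspa1b fell by 1.13 ± 0.14 (adjusted p = 0.000343), or by 0.72 without probe sets that can match several transcripts. Of 17 p53 targets, 6 rose (35.3%) and 1 fell (5.88%), with the death receptor gene Tnfrsf10b at 1.11 ± 0.11 (adjusted p = 5.49e-05). Without siKeap1-2 replicate 2, 2 rose, and without siControl replicate 4 or siKeap1-2 replicate 3, 3 rose. Of 6 subunits of the phagocyte NADPH oxidase, 2 fell (33.3%), Cybb by 0.33 ± 0.05 (adjusted p = 0.00216) and Ncf4 by 0.28 ± 0.06 (adjusted p = 0.00823). Ppard, a fatty acid sensing nuclear receptor, rose by 0.87 ± 0.07 (adjusted p = 7.45e-06). Of 16 alternative activation markers, 1 rose (6.25%, near the 6.32% of all genes) and 2 fell (12.5%, against 4.89%), with a median of −0.21. With paired arrays 2 rose and 5 fell. Il4ra, the receptor chain for interleukin 4, rose by 0.72 ± 0.09 (adjusted p = 0.000193). The transcription factor gene Klf4 fell by 0.54 ± 0.13 (adjusted p = 0.0203), and the mannose receptor gene Mrc1 fell by 0.25 ± 0.06 (adjusted p = 0.0189). Neither fall passed without the arrays numbered 4 (adjusted p = 0.0763 and 0.0607), and 1 fell without siKeap1-2 replicate 1, 2, 3 or 4 or siControl replicate 2 or 3. Arg1 and Retnla gave changes of −0.09 (adjusted p = 0.844) and 0.09 (adjusted p = 0.931). Of 30 respiratory chain subunits, 2 rose (6.67%), close to the share over all genes, and 1 to 5 rose under the settings tried, with 1 when siControl replicate 2, 3 or 4 or siKeap1-2 replicate 2, 3 or 4 was left out.

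Transport and degradation genes moved in both directions. Of 36 autophagy and lysosome genes, 8 rose (22.2%) and 2 fell (5.56%), and 5 rose without the arrays numbered 4 or with centred arrays. Atg4b, a protease that processes Atg8 proteins, read 10.92, 11.0, 11.03 and 10.84 with siKeap1-2 and 10.34, 10.24, 10.34 and 10.05 with siControl, and rose by 0.70 ± 0.09 (adjusted p = 0.000353). Ctsk, the lysosomal protease cathepsin K, rose by 0.43 ± 0.05 (adjusted p = 0.000259). Sqstm1, the autophagy adaptor p62 and a known Keap1 binder, rose by 0.36 ± 0.05 (adjusted p = 0.00118), but as the mean of its probe sets the rise of 0.29 was not called (adjusted p = 0.174). Of 20 amino acid transporters, 6 rose (30%), among them Slc7a11 and Slc6a9, and 2 fell (10%), with 2 rises without the arrays numbered 4. Slc7a8, which carries neutral amino acids, read 7.67, 7.55, 7.43 and 7.58 with siKeap1-2 and 8.24, 8.26, 8.32 and 8.21 with siControl, and fell by 0.70 ± 0.07 (adjusted p = 4.76e-05). Of 7 targets of the aryl hydrocarbon receptor, 5 rose (71.4%), Nqo1 among them, and 2 without the arrays numbered 4. Tiparp, which represses that receptor, rose by 0.39 ± 0.06 (adjusted p = 0.00178). Without siControl replicate 2 or 3 or siKeap1-2 replicate 1 or 2, 3 of these 7 rose.

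**Figure D4:**
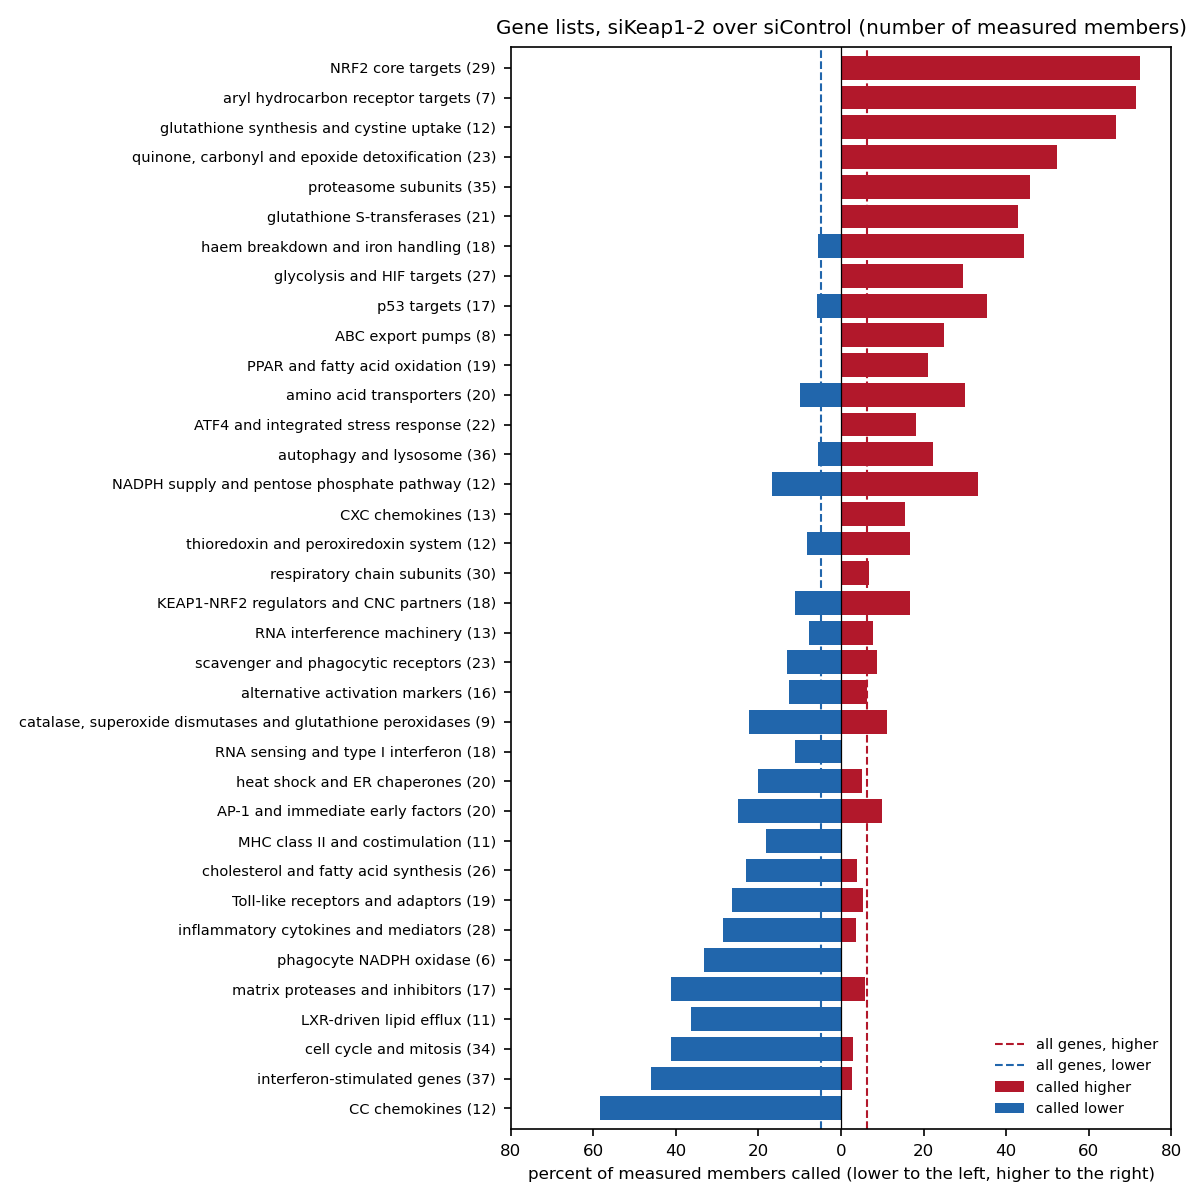
Share of the measured members of 36 gene lists called higher (red, to the right) or lower (blue, to the left) with siKeap1-2 over siControl, in percent, with the number of measured members in brackets and the shares over all genes, 6.32% higher and 4.89% lower, as dashed lines. The core Nrf2 targets stand at the top at 72.4% higher, and the CC chemokines at the bottom at 58.3% lower.

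The first Keap1 siRNA gave a direct comparison on separate arrays. Between siKeap1-2 and siKeap1-1, 1356 genes (7.45%) were called, 706 higher and 650 lower with siKeap1-2, and at least 2-fold differences numbered 17 higher and 26 lower. With paired arrays 2665 genes were called, without siKeap1-2 replicate 2 there were 849, and without the arrays numbered 4 there were 868. Keap1 itself averaged 9.3 with siKeap1-2 and 9.1 with siKeap1-1, a difference of 0.20 with a 95% interval of 0.02 to 0.37 (adjusted p = 0.199). For Gclc the difference was −0.12 (−0.50 to 0.27, adjusted p = 0.789), for Gclm −0.08 (−0.34 to 0.17, adjusted p = 0.764) and for Nqo1 −0.10 (−0.38 to 0.18, adjusted p = 0.748). The intervals of Gclc, Gclm and Nqo1 leave room for differences in either direction, while that of Keap1 lay above 0 although its adjusted p missed the threshold.

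Some redox genes did differ between the siRNAs. Srxn1 rose with siKeap1-2 but changed by 0.04 with siKeap1-1, whose adjusted p was 0.768, and the difference of 0.51 ± 0.06 was called (adjusted p = 0.000592). Taldo1 was higher with siKeap1-2 by 0.27 ± 0.05 (adjusted p = 0.00559), Heph by 0.73 ± 0.15 (adjusted p = 0.0132) and Adm by 0.89 ± 0.15 (adjusted p = 0.00356). The Heph difference did not pass without the arrays numbered 4 (0.76, adjusted p = 0.0629) or in a fit of both groups alone (adjusted p = 0.0503), and the Adm difference was 0.55 as the mean of its probe sets and did not pass without probe sets that can match several transcripts (0.20, adjusted p = 0.378). The reverse held for Gsta2, which rose by 2.94 with siKeap1-2 and by 4.20 with siKeap1-1 (difference −1.26 ± 0.18, adjusted p = 0.00168). Treml4 (difference −1.01, adjusted p = 0.00496) and Fosl1 (difference −1.25, adjusted p = 0.00252, or −0.82 as the mean of its probe sets) were also lower with siKeap1-2. Among inflammatory and matrix genes, Tnf differed by −0.56 (adjusted p = 0.00321), Tlr2 by −0.49 (adjusted p = 0.00247), Adam8 by −0.55 (adjusted p = 0.000156) and Timp1, a metalloproteinase inhibitor, by −0.70 (adjusted p = 0.00118). Each of these 4 was lower with siKeap1-2.

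Of the 20 genes named for the largest differences between the siRNAs, Gsta2 has been given above. Slamf8, a SLAM family receptor of myeloid cells, read 10.58, 10.68, 10.49 and 10.70 with siKeap1-2, 12.03 to 12.40 with siKeap1-1, and 11.53, 11.65, 11.60 and 11.77 with siControl. It fell by 1.02 ± 0.09 with siKeap1-2 (adjusted p = 1.48e-05) and rose by 0.54 with siKeap1-1 (adjusted p = 0.00111), and the difference of −1.57 ± 0.09 had an adjusted p of 2.39e-06. Dmkn read 6.92, 7.29, 7.58 and 6.81 with siKeap1-2, and the difference to siKeap1-1 was −1.77 (adjusted p = 0.000334). Against siControl, Dmkn changed by 0.53 with siKeap1-2 (adjusted p = 0.129) and by 2.30 with siKeap1-1 (adjusted p = 2.04e-05). Ypel4 (difference −1.36, adjusted p = 0.000358) and Slco4a1, an organic anion transporter (−1.27, adjusted p = 0.00154), also read lower with siKeap1-2 than with siKeap1-1. All 10 genes named for the largest differences in the other direction fell with siKeap1-1. Poldip2 changed by 0.08 with siKeap1-2 (adjusted p = 0.436) and by −1.0 with siKeap1-1 (adjusted p = 7.08e-07), a difference of 1.08 or, with the mean of its probe sets, of 0.60. Prkar2a, a regulatory subunit of protein kinase A, changed by 0.17 with siKeap1-2 (adjusted p = 0.293) and by −1.01 with siKeap1-1 (adjusted p = 2.89e-05). Epas1, which encodes HIF-2 alpha, changed by −0.12 with siKeap1-2 (adjusted p = 0.66) and by −1.28 with siKeap1-1 (adjusted p = 7.72e-05). Smagp changed in opposite directions, with a rise of 0.46 with siKeap1-2 (adjusted p = 0.00342) and a change of −0.79 with siKeap1-1 (adjusted p = 5.79e-05).

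**Figure D5:**
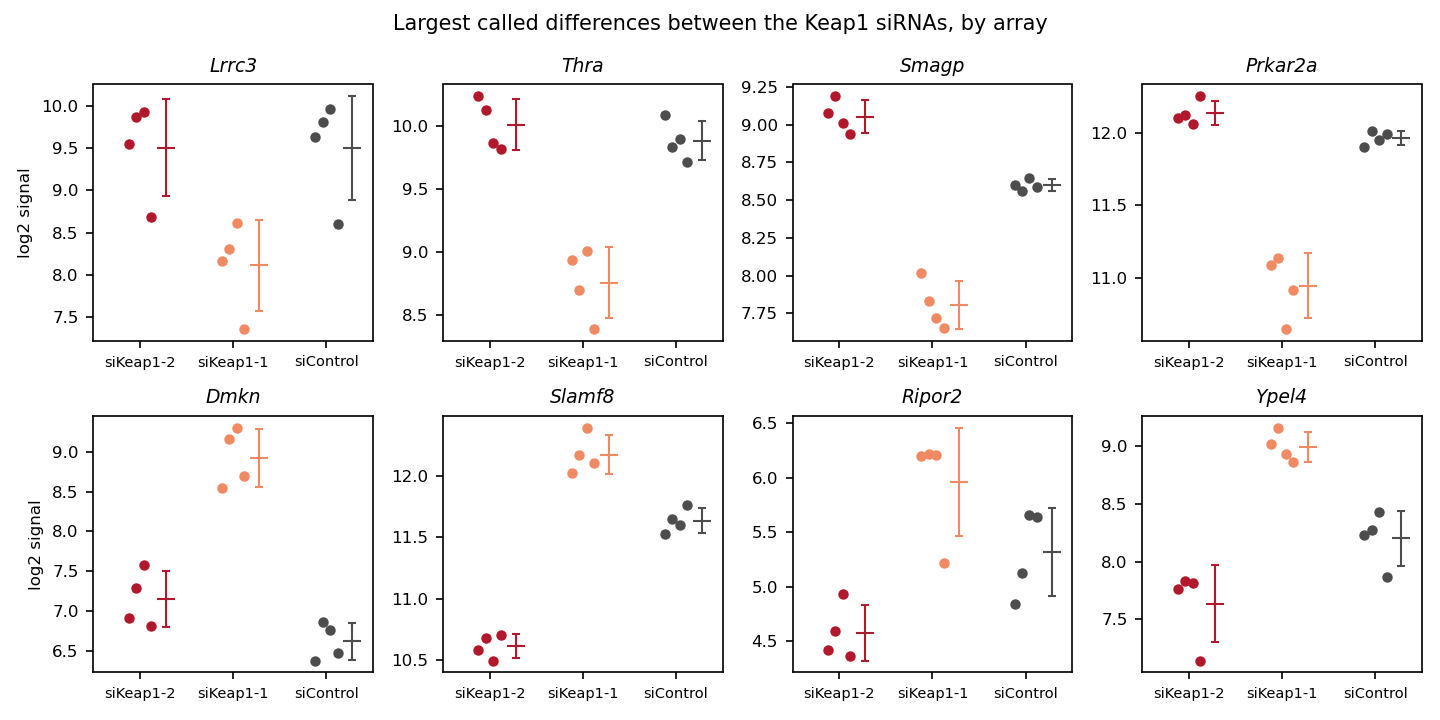
Log2 signal (vertical axis, a scale of its own in each panel) of the 4 genes with the largest called differences in each direction between the siRNAs, on 4 arrays each of siKeap1-2 (red), siKeap1-1 (orange) and siControl (grey), with the group mean and SD beside the points. In the upper row the siKeap1-1 mean lies below both other means, and in the lower row every siKeap1-1 array lies above every siKeap1-2 array. The genes were chosen for large differences between these groups, which favours such separation, and its share over all genes was not computed. The Lrrc3 call ended when any 1 of 6 of the 12 arrays was left out (limma adjusted p up to 0.104).

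The compound experiment, with arrays and controls of its own, showed the same genes under RA839 and without Nrf2. RA839 against DMSO in WT cells called 104 genes higher (0.572%) and 16 lower (0.0879%). Of the 104, 79 (76%) also rose with siKeap1-2, which is 6.88% of the 1149, and of the 16, 7 (43.8%) also fell with siKeap1-2, 0.787% of the 889. No gene (0) was called in opposite directions. In KO against WT cells in DMSO, 2518 genes were called lower (13.8%) and 2043 higher (11.2%). Of the 1149 genes that rose with siKeap1-2, 438 (38.1%) were lower in KO cells and 47 (4.09%) higher, and of the 889 that fell, 172 (19.3%) were higher in KO cells and 72 (8.1%) lower. Of the 137 with at least 2-fold rises, 94 (68.6%) were lower in KO cells, 4 higher, and 41 (29.9%) rose with RA839. RA839 calls numbered 486 with paired arrays, 72 without the fourth RA839 array and 74 without the first DMSO array.

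Of the 29 measured core Nrf2 targets, 7 rose with RA839 (0.572% of all genes did) and 26 were lower in KO cells (13.8% of all genes were). Cxcl3 and Ednrb are examples of genes called in all 3 contrasts. Cxcl3 read 9.20, 8.67, 10.03 and 10.31 with RA839 and 7.21, 6.52, 7.88 and 7.88 with DMSO in WT cells, and rose by 2.18 (adjusted p = 0.049). In KO cells with DMSO it read 5.33, 5.85, 5.0 and 5.15, lower than in WT cells (log2 change −2.04, adjusted p = 0.00539). Ednrb rose by 1.76 with RA839 (adjusted p = 0.00518) and stood at 3.76 to 4.60 in KO cells, against 8.83 to 10.48 in WT cells with DMSO, a change of −5.56 (adjusted p = 3.44e-09). Treml4 rose by 1.41 with RA839 (adjusted p = 0.0494), Adm by 1.38 (adjusted p = 0.0104) and Rasd2 by 2.21 (adjusted p = 0.00283). With DMSO, Treml4 read 4.83 to 5.98 in KO cells and 7.26 to 8.04 in WT cells, and Rasd2 3.67 to 4.00 and 5.25 to 5.99. The Adm values overlapped, at 6.50 to 6.92 in KO cells and 6.29 to 7.16 in WT cells. Heph did not pass with RA839 (0.87, adjusted p = 0.515) or in KO cells (−0.89, adjusted p = 0.147), and its signal was dim there, at 2.54 to 3.05 in KO cells and 3.02 to 4.23 in WT cells with DMSO. The experiments were fitted apart, and sizes are set side by side only.

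Among the falls shared with RA839, Ccl4 read 8.09, 7.72, 8.26 and 8.04 with RA839 and 8.85, 8.81, 8.90 and 8.70 with DMSO in WT cells, a change of −0.79 (adjusted p = 0.0332). The adaptor gene Sla changed by −0.85 (adjusted p = 0.00409), the ubiquitin ligase gene Cblb by −0.61 (adjusted p = 0.00393) and Zc3h12d by −0.60 (adjusted p = 0.0207), and all 3 also fell with siKeap1-2, by 0.88, 0.66 and 1.02. Ccl2 changed by −0.95 with RA839 and did not pass (adjusted p = 0.187). In KO cells with DMSO, Ccl7 was higher than in WT cells by 1.36 (adjusted p = 0.0179), Ccl12 by 1.21 (adjusted p = 0.00196) and Cd72 by 1.26 (adjusted p = 2.82e-07). Cd72 read 11.36, 11.33, 11.48 and 11.36 in KO cells and 10.26, 9.99, 10.15 and 10.11 in WT cells. Lox (2.50, adjusted p = 0.00634) and Mmp9 (1.26, adjusted p = 0.0234) were higher in KO cells too.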

How the data were processed

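Affymetrix whole-genome mouse arrays were hybridised with RNA of 28 samples. The deposited table holds log2 values per probe set, which the authors made with RMA, per the submitters' processing notes. RMA corrects background, normalizes arrays and summarises probes, and its version is not stated in the sources used here. RMA shrinks differences of dim probe sets. Of 45101 probe sets, 34945 named 1 gene in the platform annotation and were no controls, and 34741 of these matched a RefSeq gene (GRCm38.p6, 0 symbols changed). Where a gene had several probe sets, the one brightest on average across the 28 arrays stood for it, giving 18193 genes.

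The 12 siRNA arrays were fitted with limma 3.58.1 in R 4.3.3 (1 coefficient per group, eBayes, two-sided, Benjamini-Hochberg), the 16 compound arrays likewise and apart. Errors are standard errors, n = 4 arrays per group, whose number limits the precision. The design text calls the arrays biological replicates. No 2 arrays held identical values (0 pairs).

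Same-numbered siKeap1-2 and siControl arrays deviated together (correlations of 0.24 to 0.66 across genes, other pairs −0.42 to 0.18). Between siKeap1-2 and siKeap1-1, same-numbered pairs gave 0.12 to 0.66 and other pairs −0.39 to 0.26. There the lowest same-numbered value, of the arrays numbered 2, lay within the range of other pairs, and 3 of 4 siKeap1-2 arrays matched their own number best. All same-numbered pairs exceeded 0.1, so the replicate number was taken to pair them and was a block in an alternative fit. Unless another fit is named, errors and adjusted p-values here are from the fit without that block. The median standard error of siKeap1-2 over siControl was 0.0926 without the block and 0.0735 with it, so some genes not called here were called with pairing. The labels do not say what a number shares. Other alternatives were other normalizations, priors, probe set choices, array weights, thresholds and each array left out. Leaving out all arrays numbered 4 was chosen after seeing the data.

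Members and lists were chosen with earlier results of these data known. Named genes were 9 fixed genes (Keap1, Nfe2l2 and 7 targets), the 15 largest rises and falls with no overlap between groups, up to 4 called members a list, the 10 largest differences each way between the siRNAs, and up to 5 genes each way shared with the compound experiment. Outside that rule, 12 called genes of the lists and 10 called differences between the siRNAs were named after their values were seen. Clone names were left out (1 fall, 1 difference). Tested on simulated arrays of 18193 genes, the fit recovered 84% of 1.5-fold, 96% of 2-fold and 100% of 3-fold and 4-fold changes in siKeap1-2 over siControl, with 7 false calls. The simulated noise was independent between arrays and genes, without the shared deviations of same-numbered arrays, and fewer genes were changed than were called here. These rates hold for that setting only and are not error rates of the real arrays.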

Additional observations from a re-analysis of the deposited data

Results flagged for a closer look

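Single arrays stood far from the other 3 of their group in 25 of 380 groups of 4 arrays, over 175 named genes, by Dixon's ratio of the gap to the range; chance alone gives about 1 in 20. Values are log2 signals. Of these, 7 were on siKeap1-2 array 4 or siKeap1-1 array 4. Armcx2 read 7.50 on siKeap1-2 array 4 (8.04 to 8.13 on the other 3), Ccnd2 8.43 (9.17 to 9.28), Srxn1 13.85 (13.98 to 14.01), Tyro3 6.67 (6.52 to 6.54) and Ypel4 7.14 (7.76 to 7.83), and on siKeap1-1 array 4 Ripor2 read 5.22 (6.20 to 6.22) and Srxn1 13.34 (13.47 to 13.49). Tnf read 8.11 on siKeap1-1 array 1 (8.39 to 8.41). On siKeap1-2 array 1, Ccl7 read 5.07 (5.90 to 6.06), Esm1 5.03 (6.29 to 6.40) and Ifit1 11.38 (11.65 to 11.70). Gsta3 read 12.37 on siKeap1-2 array 2 (12.23 to 12.25) and Il1b 6.97 on siKeap1-2 array 3 (6.37 to 6.47).

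Among the siControl arrays, array 4 read 12.16 for Abcc1 (11.89 to 11.93 on the other 3), 10.48 for Gclc (9.97 to 10.03), 6.88 for Il1b (7.93 to 8.04) and 7.36 for Rph3a (7.81 to 7.88). Array 1 read 12.60 for Acadl (12.36 to 12.38), 5.98 for Adh7 (5.53 to 5.58), 9.01 for Armcx2 (8.73 to 8.76), 11.36 for Idh2 (11.52 to 11.55), 10.19 for Klf4 (9.74 to 9.81), 9.03 for Ppard (8.75 to 8.78) and 9.25 for Tlr2 (9.40 to 9.43). Array 3 read 12.13 for Cblb (11.92 to 11.96).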

How the results depend on the processing

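With the replicate block, 3719 genes were called for siKeap1-2 over siControl (2067 higher, 1652 lower), 2665 for siKeap1-2 minus siKeap1-1 (1275 higher, 1390 lower), 4371 for siKeap1-1 over siControl and 486 for RA839. Of the named calls of siKeap1-2 over siControl the block ended 1, Cyp1a1, and it ended none (0) of the 30 between the siRNAs. Array weights gave 3243 (1827 higher, 1416 lower) for siKeap1-2 over siControl. At an adjusted p under 0.01 there were 991 (560 and 431) for it and 593 (346 and 247) between the siRNAs. Fitting only the groups compared gave 845 (464 and 381) between the siRNAs. Leaving out arrays singly, or those numbered 4 together, gave 1361 to 2565 genes (744 to 1443 higher) for siKeap1-2 over siControl, 849 to 1335 (437 to 703 higher, 387 to 642 lower) between the siRNAs and 72 to 136 for RA839. Of 156 named results of siKeap1-2 over siControl, 107 kept their call in every setting tried, 49 lost it in some and 2 reversed: Masp1 at 0.25 without probe sets that can match several transcripts and Idh2 at 0.0177 with the mean of probe sets; the cause was not tested. Keap1 stayed between −1.90 and −1.80 in the fits that left arrays out. No paired analysis was possible for KO over WT because numbers are nested in genotype. Dim probe sets limit small changes, and the median 95% half-width of a log2 change was 0.20.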
